A study of Mus musculus with 18 samples.

Results

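The genes followed here belong to the cellular response to low oxygen and to sugar breakdown, and were measured on 18 arrays of perinatal mouse lung. They were Hif1a, Epas1, Egln3, Slc2a1, Hk2, Pfkl, Pfkp, Ldha, Pdk1 and Bnip3, picked by name, and every probe set of the deposited table whose single gene symbol was one of them was taken. This gave 10 genes of the 19938 with a probe set of their own, and 11 probe sets of the 21789 with a single symbol and of 35556 in all, with 1 probe set for each gene and 2 for Bnip3. The table held log2 expression values, so that a difference of 1 is a doubling, and levels are compared below within a gene only, because probe sets differ in how brightly they bind.

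The arrays of whole-lung RNA came from 6 groups of 3 biological replicates. In ScapΔ/Δ mice, both floxed Scap alleles were targeted in respiratory epithelium by a Cre under the control of (tetO)7CMV. The rtTA activator from the SP-C promoter drove this Cre. Doxycycline chow was given to the dams in early to mid gestation and then withdrawn. The paper describes deletion by this transgenic system as incomplete and as varying between samples. Lungs of these mice were taken at E18.5 and at PN1, the day of birth. Their controls were Scap flox/flox littermates lacking rtTA or Cre, and this colony had a mixed background of FVB/N and a B6 hybrid. In Insig1/2Δ/Δ mice, taken at E17.5, the same transgenes targeted floxed Insig1 in lungs of animals that lacked Insig2 everywhere. The Insig1 flox/flox/Insig2-/- littermates that served as controls lacked Insig2 too. Fetuses were delivered by Cesarean section under anesthesia, so that the E17.5 and E18.5 lungs were taken before birth. The PN1 lungs came from born pups killed with pentobarbital, and exsanguination followed in both cases. Anesthesia and the way of killing thus differed with the day and cannot be told apart from it. Age also differed between E18.5 and PN1 and cannot be told apart from birth, so "at birth" below means the step between these days. SCAP carries the sterol-regulated transcription factors SREBP to the site of their activation and the INSIG proteins hold it back, so the lines were made to lower or raise SREBP activity in the epithelium. The whole-lung arrays also read the cells in which the genes stayed intact, and fewer cells of a type and less RNA per cell cannot be told apart in them.

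The labels were checked on the targeted genes, although where their probes lie relative to the deleted exons is not given in the sources used here. The Scap level was 9.22 to 9.47 in the E18.5 ScapΔ/Δ lungs against 9.71 to 9.75 in their controls, and 9.53 to 9.65 against 9.76 to 9.92 at PN1, and the Insig1 level was 8.21 to 8.58 in Insig1/2Δ/Δ lungs against 9.29 to 10.002 in theirs. No marker of the type II, type I, airway and endothelial lists lay below the 35th percentile of any array, and 4 or 5 of 7 measured thymus markers lay below the 35th percentile of each array. Arrays KO17 and KO18, 2 of the 3 ScapΔ/Δ lungs at PN1, stood apart: their correlation with the other 16 arrays, KO16 of their own group included, was 0.931 to 0.960, while those 16 correlated with one another at 0.973 or more, and their array medians were 7.67 and 7.70 against 7.42 to 7.50. Results that rest on them are given with and without them.

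When oxygen is scarce, the prolyl hydroxylases of the Egln family can no longer mark the alpha subunits of the hypoxia-inducible factors, encoded by Hif1a and Epas1, for destruction by the VHL ubiquitin ligase, and the stabilized factors raise transcription of a broad set of genes. Among these targets are the glucose transporter Slc2a1, the enzymes of glycolysis, the mitophagy receptor Bnip3 and Egln3 itself. Another is the kinase Pdk1, which inhibits pyruvate dehydrogenase in the mitochondria. The fetal lung matures at the low oxygen tension of the womb, and at birth its oxygen tension rises steeply while the placental supply of glucose ends. The arrays measured RNA only, and neither oxygen nor the factors' protein was recorded.

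Hypoxia-inducible factors bind DNA at the core ACGTG or GCGTG, so the promoter windows of the genes that fell at birth in control lungs (Slc2a1, Hk2, Pfkl, Pdk1 and Egln3) are printed here to show where those letters lie, with that of Ldha for contrast, whose groups overlapped. Each window, from the RefSeq annotation of GRCm38.p6, runs from 250 bases before to 50 bases after the start, 5′ to 3′ on the gene's strand, with both cores in capitals on either strand, so that ACGTG on the other strand reads CACGT and GCGTG reads CACGC. The windows were Slc2a1 at chr4:119108495-119108794 (+), Hk2 at chr6:82774405-82774704 (-), Pfkl at chr10:78009758-78010057 (-), Pdk1 at chr2:71872974-71873273 (+), Egln3 at chr12:54203825-54204124 (-) and Ldha at chr7:46845554-46845853 (+).
Slc2a1: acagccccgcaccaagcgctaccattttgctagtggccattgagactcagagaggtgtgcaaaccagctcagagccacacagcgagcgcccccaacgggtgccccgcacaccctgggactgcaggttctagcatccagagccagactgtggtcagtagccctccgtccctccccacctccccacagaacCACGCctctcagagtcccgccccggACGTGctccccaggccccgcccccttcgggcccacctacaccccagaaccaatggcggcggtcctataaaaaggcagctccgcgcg
Hk2: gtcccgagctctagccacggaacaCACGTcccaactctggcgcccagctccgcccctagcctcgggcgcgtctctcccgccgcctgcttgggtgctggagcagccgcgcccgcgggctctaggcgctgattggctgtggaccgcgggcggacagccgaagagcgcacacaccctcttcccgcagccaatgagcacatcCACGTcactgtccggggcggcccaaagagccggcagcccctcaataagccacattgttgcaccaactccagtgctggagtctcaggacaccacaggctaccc
Pfkl: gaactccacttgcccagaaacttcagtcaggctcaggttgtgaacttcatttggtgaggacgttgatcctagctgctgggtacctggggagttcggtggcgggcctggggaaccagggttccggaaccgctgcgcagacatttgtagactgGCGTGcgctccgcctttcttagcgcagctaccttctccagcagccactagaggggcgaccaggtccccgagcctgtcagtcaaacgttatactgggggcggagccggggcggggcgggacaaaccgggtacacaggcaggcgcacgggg
Pdk1: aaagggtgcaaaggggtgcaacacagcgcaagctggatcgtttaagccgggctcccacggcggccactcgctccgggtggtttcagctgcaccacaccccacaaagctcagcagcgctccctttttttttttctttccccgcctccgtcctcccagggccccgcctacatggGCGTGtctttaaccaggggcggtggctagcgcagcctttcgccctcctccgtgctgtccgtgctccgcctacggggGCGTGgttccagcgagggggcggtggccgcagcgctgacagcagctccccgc
Egln3: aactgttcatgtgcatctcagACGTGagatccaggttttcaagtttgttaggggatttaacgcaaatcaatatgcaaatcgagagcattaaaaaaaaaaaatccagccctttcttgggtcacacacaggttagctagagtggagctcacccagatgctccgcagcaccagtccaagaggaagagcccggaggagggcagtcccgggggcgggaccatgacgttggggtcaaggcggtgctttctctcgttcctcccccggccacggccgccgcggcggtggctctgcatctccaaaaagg
Ldha: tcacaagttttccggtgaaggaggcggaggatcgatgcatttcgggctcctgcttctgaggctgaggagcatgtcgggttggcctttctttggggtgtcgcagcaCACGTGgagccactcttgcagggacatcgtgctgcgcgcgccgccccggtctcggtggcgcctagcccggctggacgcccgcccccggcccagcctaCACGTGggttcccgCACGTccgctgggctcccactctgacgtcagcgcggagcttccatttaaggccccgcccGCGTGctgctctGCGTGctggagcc
The letters ACGTG occurred in 19.6% of all 32851 promoter windows and GCGTG in 32.4%, with at least one of them in 43.8%. There were 11 windows for the 9 genes other than Epas1, the second windows being those of Pdk1 and Ldha. A core lay in 10 of the 11, and the second Pdk1 window, which is not printed, had none. Slc2a1 had 1 of each core, Hk2 had 2 ACGTG, Pfkl 1 GCGTG, Pdk1 2 GCGTG and Egln3 1 ACGTG. Ldha had 5 ACGTG and 2 GCGTG, the most of the printed windows, and its window lies within the gene body given below rather than at its edge. Its 2 copies of the palindrome CACGTG, which holds ACGTG on both strands, are counted on each strand (CACGTG occurred in 7.15% of all windows). Of the genes whose windows are not printed, none called in control lungs, Hif1a had 3 ACGTG and Pfkp 4 GCGTG. Bnip3 had 2 ACGTG and 3 GCGTG, so cores were not confined to the genes that fell. A match of letters is a description of these windows and does not show that a factor binds there. The gene bodies themselves lie at chr4:119108745-119137330 (Slc2a1), chr6:82725025-82774454 (Hk2), chr10:77986947-78009807 (Pfkl), chr2:71873215-71903858 (Pdk1), chr12:54178981-54203874 (Egln3) and chr7:46842274-46855627 (Ldha), and those of the other genes at chr12:73901324-73947554 (Hif1a), chr17:86753864-86833410 (Epas1), chr13:6579874-6649060 (Pfkp) and chr7:138890836-138909506 (Bnip3).

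Between E18.5 and PN1, 5 of the 11 probe sets fell in control lungs (adjusted p under 0.05, limma fit of 4 group means over the 12 Scap line arrays, Benjamini-Hochberg over 22800 probe sets), and none rose. They were Egln3, Pfkl, Slc2a1, Pdk1 and Hk2, with levels at birth between 1.51-fold and 2.59-fold lower. Of all probe sets tested, 2.58% were called, 1.39% as lower. The median change of the 11 probe sets was -0.66, against 0.01 over all probe sets, and 9 of the 11 changes were below 0.

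**Figure D1:**
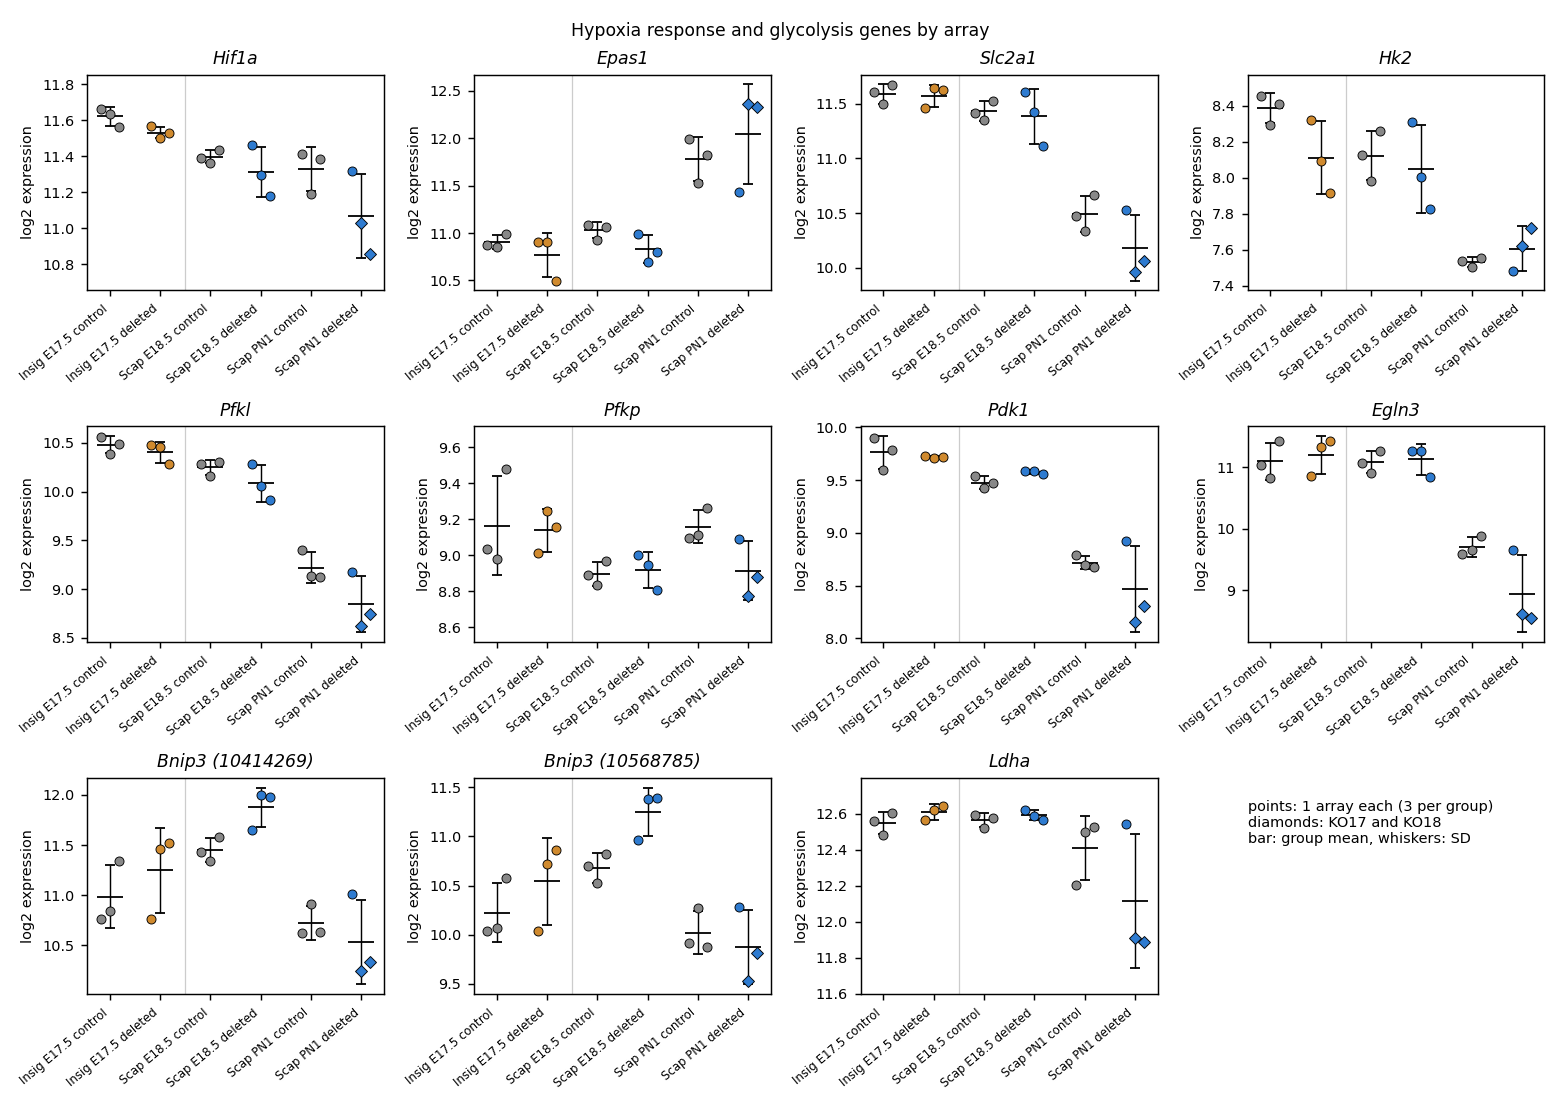
Log2 expression (vertical axes, 1 panel per probe set, each with its own scale) of the 10 genes in 6 groups of 3 lungs, with points for single arrays, diamonds for KO17 and KO18, and the group mean with its SD. Slc2a1, Hk2, Pfkl, Pdk1, Egln3 and both Bnip3 probe sets lie lower in every PN1 lung than in every E18.5 lung. Hif1a and Ldha overlap between the control days.

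Slc2a1 is one of the transporters that carry glucose across the membrane, and Hk2 one of the hexokinases that trap it by phosphorylation. The Slc2a1 level was 11.42, 11.35 and 11.52 in the E18.5 control lungs and 10.47, 10.34 and 10.67 in the PN1 controls, a fall of 1.92-fold (log2 change -0.94, SE 0.16, adjusted p = 0.0156). For Hk2 the values were 8.13, 7.98 and 8.26 at E18.5 and 7.54, 7.50 and 7.56 at PN1 (-0.59, SE 0.12, adjusted p = 0.0344). In both genes the days did not overlap, and the 3 Hk2 values lay closer together at PN1 than at E18.5.

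Phosphofructokinase commits sugar to glycolysis and is built from several isoforms. Pfkl, the liver-type isoform, gave 10.29, 10.16 and 10.30 at E18.5 and 9.40, 9.13 and 9.12 at PN1 in controls, 2.04-fold lower (-1.03, SE 0.15, 95% interval -1.36 to -0.70, adjusted p = 0.00741). Pfkp, the platelet-type isoform, gave 8.89, 8.83 and 8.97 and then 9.10, 9.11 and 9.26, so that its days did not overlap either but in the other direction, by 0.26 (SE 0.10, adjusted p = 0.251). Pfkm, the muscle-type isoform, differed by -0.38 (adjusted p = 0.186). Of the isoforms, only Pfkl was called, and the differences between isoforms were not tested.

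Ldha, which turns pyruvate into lactate, was measured at 12.60, 12.52 and 12.58 at E18.5 and at 12.21, 12.50 and 12.52 at PN1 in controls. A single PN1 lung lay low and the highest PN1 value reached the E18.5 range, and the difference of -0.16 did not pass (95% interval -0.51 to 0.20, adjusted p = 0.856). Pdk1, which shuts off pyruvate dehydrogenase, gave 9.54, 9.42 and 9.47 and then 8.79, 8.69 and 8.67. It fell by 0.76 on the log2 scale (1.69-fold, SE 0.16, adjusted p = 0.0347), with no overlap.

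Among the regulators, Egln3, the hydroxylase that is both a brake on the factors and one of their targets, had the largest change of the 11 probe sets. Its level was 11.06, 10.91 and 11.27 in the E18.5 control lungs and 9.58, 9.65 and 9.88 in the PN1 controls, 2.59-fold lower (-1.37, SE 0.26, 95% interval -1.95 to -0.80, adjusted p = 0.0224). Hif1a overlapped between the days, at 11.39, 11.36 and 11.44 and then 11.41, 11.19 and 11.38 (-0.07, SE 0.12, 95% interval -0.34 to 0.20, adjusted p = 0.970). Epas1, the alpha subunit that is abundant in lung endothelium, was higher in every PN1 control (11.99, 11.53 and 11.82) than in any E18.5 control (11.08, 10.93 and 11.07), by 0.75 (SE 0.22, adjusted p = 0.120).

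Bnip3, whose product on the mitochondrial surface recruits the autophagy machinery, was read by 2 probe sets annotated with the same transcripts. They are not independent measurements, and it is not known whether one of them reads a related copy of the gene. The brighter probe set gave 11.43, 11.35 and 11.58 at E18.5 and 10.62, 10.92 and 10.63 at PN1 in controls. The other probe set gave 10.70, 10.52 and 10.82 and then 9.92, 10.27 and 9.88. Neither overlapped between the days, and neither change passed (-0.73, adjusted p = 0.0765, and -0.66, adjusted p = 0.121). In all, 7 probe sets were lower and 2 were higher in every PN1 control than in every E18.5 control, where 16.5% and 17.6% of all probe sets were so.

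These calls depended on which arrays were fitted. The control difference itself rests on 6 arrays, but the fit takes its spread from all 12, including KO17 and KO18. With those 2 arrays left out, or with the 6 control arrays alone, 8 of the 11 probe sets passed, adding both Bnip3 probe sets as lower (brighter one adjusted p = 0.00477 and 0.00599) and Epas1 as higher (adjusted p = 0.00433 and 0.00862), with 2516 and 2552 of all probe sets called. Leaving out single arrays, Pfkl was called every time. Without C7, C8, C9 or C14 it was the only one (1 of 11), without C13 or C15 Slc2a1 passed beside it (2 of 11), without KO11 Hk2 and Pdk1 were lost (3 of 11), without KO10 or KO12 Pdk1 was lost, and without KO16 9 of 11 passed. An exact two-sided permutation test of 3 arrays against 3 cannot go below p = 0.1, the value that it gave for each of the 9 probe sets that did not overlap.

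**Figure D2:**
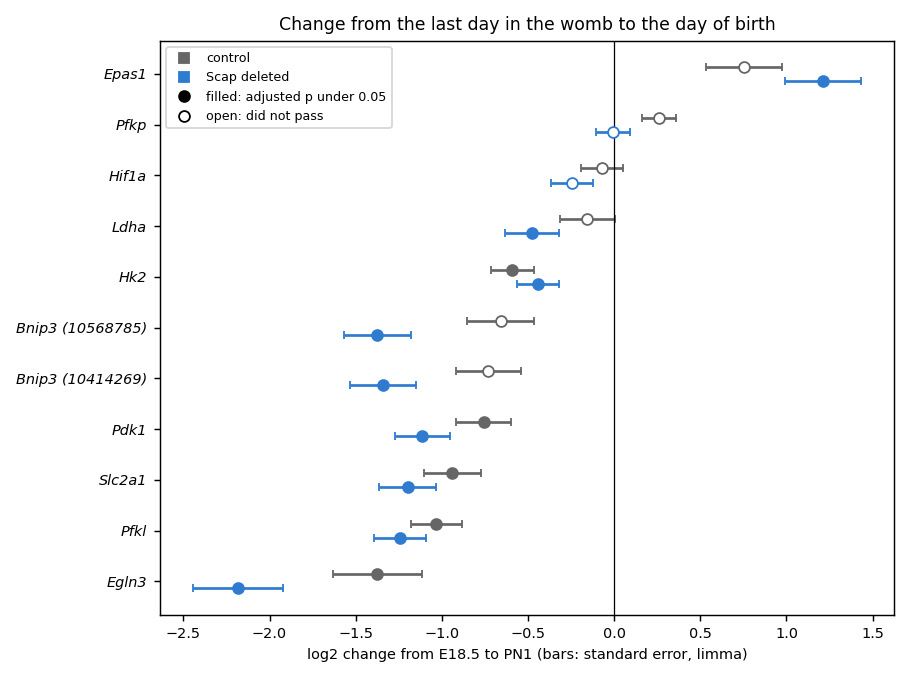
Log2 change from E18.5 to PN1 (horizontal axis, bars are standard errors from limma) of each probe set in control lungs (grey) and in ScapΔ/Δ lungs (blue), with filled points for an adjusted p under 0.05. Of the 11 probe sets, 5 were called in controls and 9 in ScapΔ/Δ lungs, and Epas1 is the one called as higher.

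Marker lists of cell types, and of the cell cycle as a state, also differed between the days in control lungs. Mean levels of cell cycle markers went from between 9.91 and 10.26 to between 8.65 and 9.06 (7 of 7 measured markers lower), those of smooth muscle from between 9.82 and 10.01 to between 10.68 and 10.82 (8 of 8 higher), and those of neutrophils from between 7.59 and 7.78 to between 8.71 and 8.93 (8 of 8 higher). Macrophage (6 of 8 higher) and cardiac muscle lists (6 of 8 higher) also did not overlap, with differences of 0.27 and 0.21. The lists of type II cells (-0.04), type I cells (0.05), airway cells (0.06), endothelium (0.09), fibroblasts (-0.26, 6 of 8 markers lower) and erythroid cells (0.19, 3 of 8 measured) overlapped between the days. The part of these lists in the changes of the 10 genes was not tested, and the labels give no processing batch that could be set against the day.

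The wider pathway was described with 5 lists, each gene by its brightest probe set. Over all 15070 genes tested, 236 rose and 272 fell at birth in control lungs, with a median change of 0.01. Of 13 genes of the oxygen-sensing machinery, 2 fell and none rose (median -0.07), and of 23 measured genes of glucose transport and glycolysis 3 fell and none rose (median -0.16), all 3 being described above. Of 12 measured genes of pyruvate dehydrogenase, its regulators and pyruvate import, only Pdk1 fell (median 0.01). The 31 other hypoxia targets held 5 that fell and 2 that rose (median -0.18, Egln3 and Egln1 counting here too). Among 16 measured genes of glycogen storage 2 fell and none rose (median -0.22).

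In the machinery, the steepest fall was that of Hif3a, which encodes another alpha subunit, with 11.08, 11.03 and 11.08 in E18.5 controls against 9.21, 7.90 and 8.04 at PN1 (-2.68, SE 0.42, adjusted p = 0.00994). The fetal lungs lay close together and the newborn lungs were widely spread, all of them lower. Egln1, the main oxygen sensor among the hydroxylases, differed by -0.45 (adjusted p = 0.0580).

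Of the other targets, Ankrd37, an ankyrin repeat gene, gave 9.22, 8.77 and 9.06 at E18.5 and 7.38, 7.41 and 7.52 at PN1 in controls (-1.58, SE 0.14, adjusted p = 0.000672). Ndrg1, a stress-response gene, went from 11.66, 11.30 and 11.48 to 10.35, 10.26 and 10.35 (-1.16, adjusted p = 0.00521). Both fell with no overlap, as did Ddit4, an inhibitor of the growth kinase mTORC1 (-0.95, adjusted p = 0.0146), and Nos2, the inducible nitric oxide synthase, also fell (-0.59, adjusted p = 0.0490). Against these, Angptl4, a secreted inhibitor of lipoprotein lipase, rose from 8.22, 8.15 and 8.15 to 10.06, 9.99 and 9.97 (1.83, SE 0.22, adjusted p = 0.00289), and the taurine transporter Slc6a6 rose by 0.67 (adjusted p = 0.0133). Vegfa, which encodes the vascular growth factor and is among the best known targets, gave 11.47, 11.41 and 11.41 at E18.5 and 11.67, 11.47 and 11.54 at PN1 and was not called.

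For glycogen, the fuel store of the immature lung epithelium, Ppp1r3c, a subunit that targets a phosphatase to glycogen, fell by 1.11 on the log2 scale (adjusted p = 0.0312) and the phosphorylase Pygl by 0.60 (adjusted p = 0.0374). In the pyruvate list, Pdk4, a kinase of the same family as Pdk1, differed by -0.88 (adjusted p = 0.0608). Without KO17 and KO18, where 2516 of all probe sets were called against 589 with them, the counts of higher and lower genes at birth in controls became 1 and 4 for the machinery, 1 and 6 for transport and glycolysis, 0 and 3 for the pyruvate list, 3 and 12 for the other targets and 1 and 7 for glycogen.

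**Figure D3:**
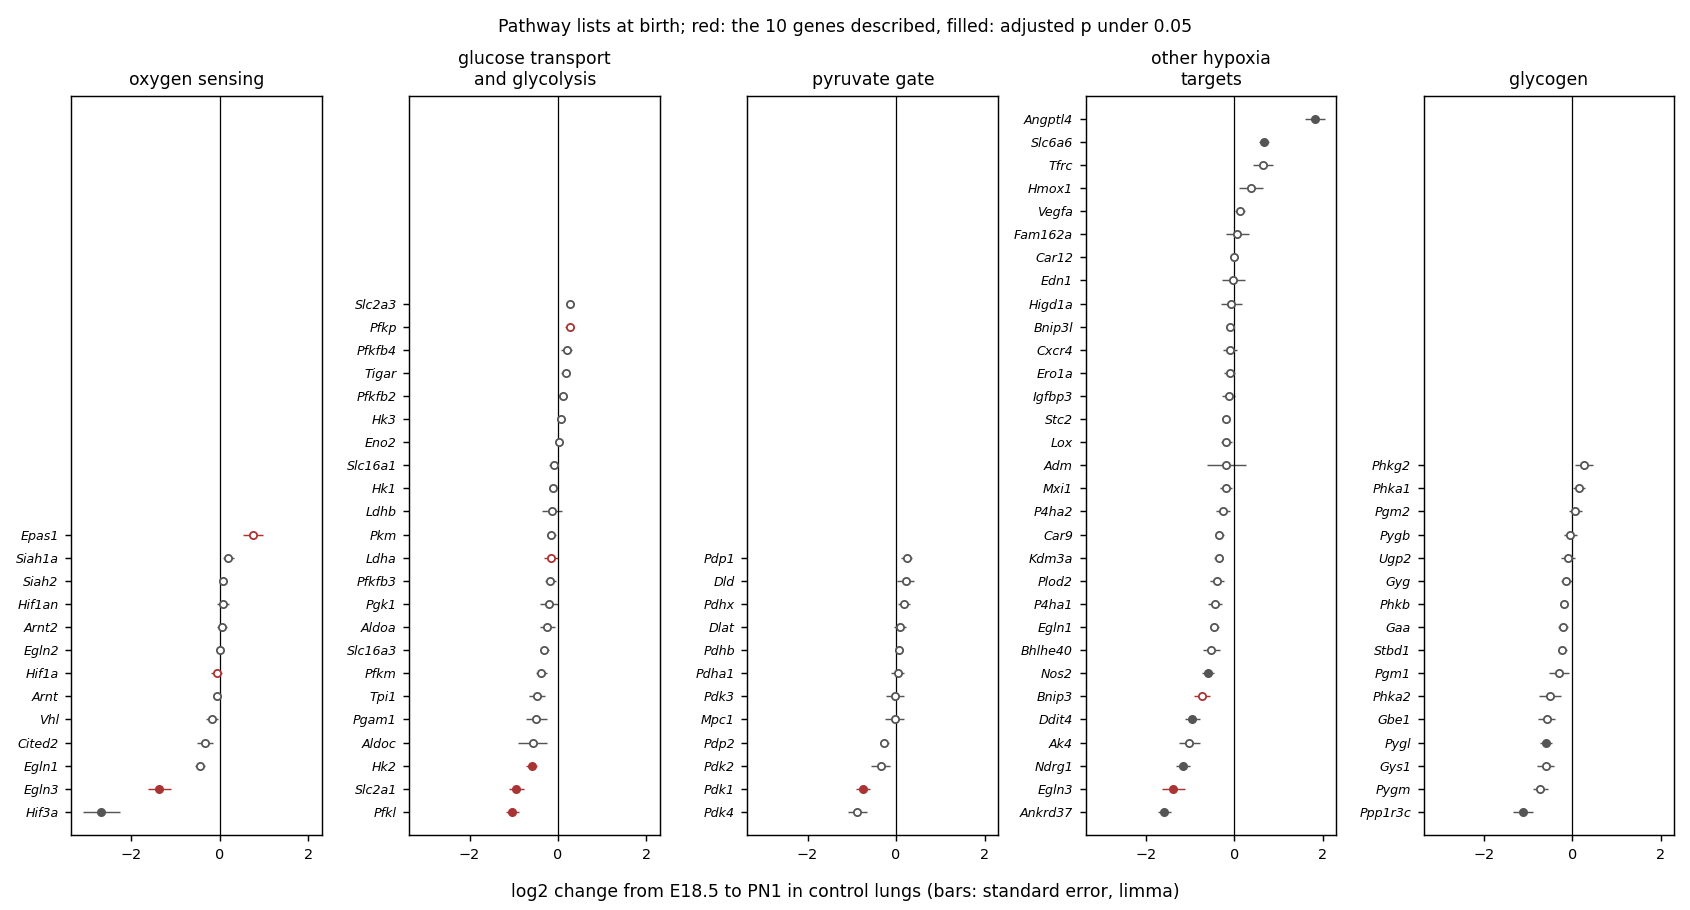
Log2 change from E18.5 to PN1 in control lungs (horizontal axes, bars are standard errors from limma) of the genes of 5 pathway lists, 1 gene per row, with the 10 genes of the report in red and filled points for an adjusted p under 0.05. Hif3a (-2.68) and Ankrd37 (-1.58) lie at the low end and Angptl4 (1.83) at the high end, while most genes of each list did not pass.

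In ScapΔ/Δ lungs, 9 of the 11 probe sets were called between E18.5 and PN1, 8 lower and Epas1 higher, against 37.6% of all probe sets (20.1% lower), and the median change was -1.11 against -0.03 over all probe sets. Egln3 gave 11.26, 11.27 and 10.84 at E18.5 and 9.66, 8.61 and 8.55 at PN1, 4.54-fold lower (-2.18, SE 0.26, adjusted p = 0.00132). Epas1 went from 10.99, 10.70 and 10.80 to 11.43, 12.36 and 12.33, 2.32-fold higher (1.21, SE 0.22, adjusted p = 0.00624). In both genes the days did not overlap, and the first PN1 value of each, from KO16, lay nearest to the fetal ones.

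Slc2a1 (-1.20, adjusted p = 0.00214), Pfkl (-1.24, adjusted p = 0.00144), Pdk1 (-1.11, adjusted p = 0.00250), Hk2 (-0.44, adjusted p = 0.0248) and Ldha (-0.48, adjusted p = 0.0393) also fell. The Bnip3 probe sets fell from 11.65, 11.996 and 11.98 to 11.02, 10.25 and 10.33 (-1.34, adjusted p = 0.00237) and by 1.37 (adjusted p = 0.00242). Hif1a (-0.24, adjusted p = 0.124) and Pfkp (adjusted p = 0.975) overlapped between the days. The 9 called were also the 9 that did not overlap, as were 34.0% of all probe sets.

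For the same step without KO17 and KO18, which leaves KO16 as the lone PN1 lung of its group and assumes that it varies like the other groups, 6 probe sets stayed past the threshold, as 6.2% of all probe sets did: Egln3 (-1.46, adjusted p = 0.00570), Pfkl (-0.92, adjusted p = 0.0127), Slc2a1 (-0.86, adjusted p = 0.0274), Pdk1 (-0.65, adjusted p = 0.00413) and both Bnip3 probe sets (-0.86, adjusted p = 0.0200, and -0.97, adjusted p = 0.0278). Epas1 (0.60, adjusted p = 0.0674), Hk2 (-0.57, adjusted p = 0.0784) and Ldha (-0.05, adjusted p = 0.854) did not. With the 6 ScapΔ/Δ arrays fitted alone, where all of the spread comes from these groups, no member passed and 0.281% of all probe sets did. Markers moved here too, with type II cell lists of 11.92 to 12.01 at E18.5 and 11.50 to 11.88 at PN1. Smooth muscle lists were 0.96 and neutrophil lists 0.73 higher, and cell cycle lists differed by -1.19. Fibroblast lists differed by -0.31, with 4 of 8 markers higher and 4 lower, and erythroid lists by -0.27 (3 of 3 measured markers lower). None of these lists overlapped between the days, and their part in the result was not tested.

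In the lists, 5 machinery genes fell and 2 rose in the ScapΔ/Δ lungs at birth (Egln3, Epas1, Hif3a at -1.77 and Cited2, which competes with the factors for their coactivator, at -1.001 changed most), 11 of the transport and glycolysis genes fell (among them Aldoc, an aldolase, at -1.69 and the mutase Pgam1 at -1.13), and 7 of the pyruvate genes fell (among them Pdk2, another pyruvate dehydrogenase kinase, at -0.92 and the opposing phosphatase Pdp2 at -0.75, with Pdk4 at -0.70). Of the other targets 18 fell and 3 rose, among them Ak4, a mitochondrial adenylate kinase, at -1.86, Ankrd37 at -1.75 and Ndrg1 at -1.48, and of the glycogen genes 11 fell and 1 rose, among them Ppp1r3c at -2.49, the muscle-type synthase Gys1 at -1.02, the branching enzyme Gbe1 at -1.004 and Pygl at -0.92. Over all genes, 3473 fell and 1912 rose. Without KO17 and KO18, where 1414 of all probe sets were called against 8581 with them, the counts of genes that fell were 4, 3, 2, 8 and 3 in the same order of lists, and only the other targets held genes that rose (3).

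At E18.5 the deletion of Scap was compared with its controls, and no member passed, as 0.00877% of all probe sets did (9.24% at an unadjusted p under 0.05, among them both Bnip3 probe sets). The median difference of the 11 probe sets was 0.02 against -0.04 over all. Bnip3 was higher in all 3 ScapΔ/Δ lungs than in any control, by 0.42 (95% interval 0.00 to 0.84, adjusted p = 0.541) and 0.57 (95% interval 0.14 to 0.996, adjusted p = 0.511) for its probe sets. The second probe set gave 10.96, 11.39 and 11.39 against 10.70, 10.52 and 10.82.

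Pdk1 was also higher without overlap, but by 0.10 only (9.58, 9.59 and 9.56 against 9.54, 9.42 and 9.47, adjusted p = 0.829). These 3 of 11 stand beside the 14.5% of all probe sets that were higher without overlap. The other probe sets overlapped between the groups, with differences from -0.20 (Epas1) to 0.05 (Egln3), and the 95% interval reached from -0.41 to 0.32 for Slc2a1 and from -0.50 to 0.17 for Pfkl. With KO17 and KO18 left out of the fit, the adjusted p of Bnip3 was 0.0912 and 0.0849. The type II list was lower in all ScapΔ/Δ lungs (11.92 to 12.01 against 12.16 to 12.21, 5 of 8 markers lower). So was the endothelial list (11.46 to 11.62 against 11.66 to 11.68, 8 of 8 markers lower), and the part of both lists was not tested.

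**Figure D4:**
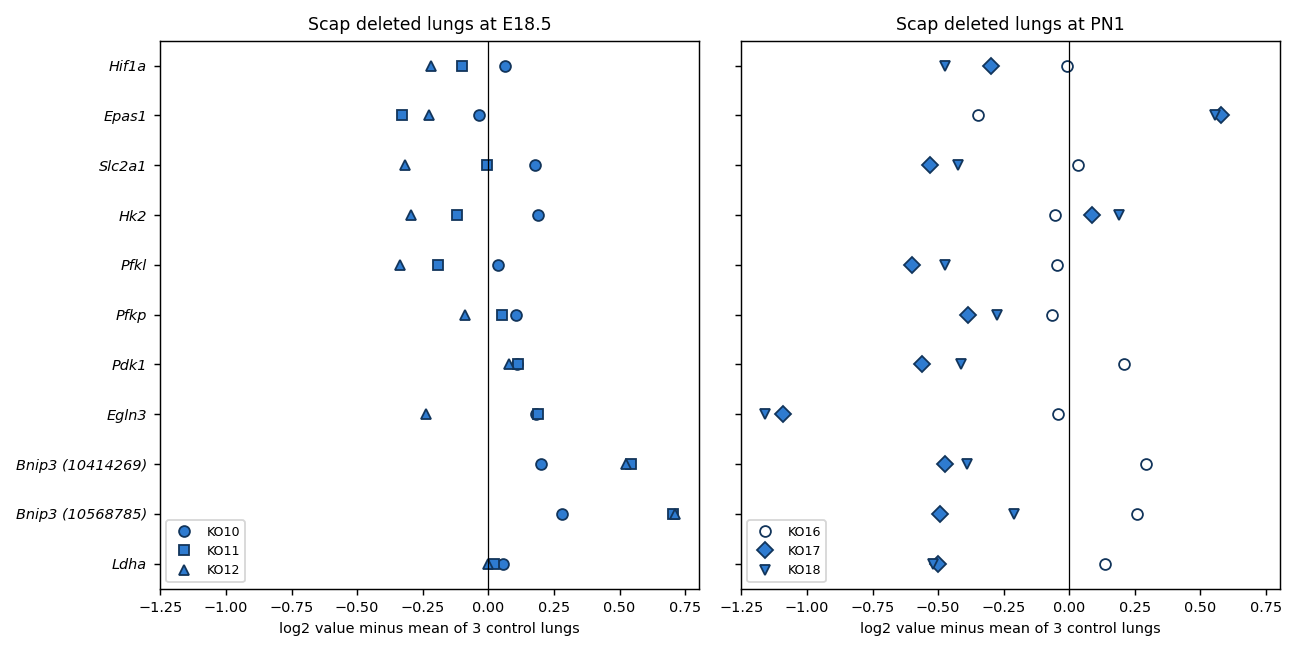
Log2 value of each ScapΔ/Δ lung minus the mean of the 3 control lungs of the same day (horizontal axis) for the 11 probe sets at E18.5 (left) and PN1 (right), with 1 symbol per array, some of which overlap. At PN1, KO17 and KO18 (filled) lie close to one another and KO16 (open) lies near 0 for Hif1a, Slc2a1, Pfkl and Egln3.

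At PN1 no member passed between ScapΔ/Δ and control lungs, as 0.00877% of all probe sets did, although 32.3% had an unadjusted p under 0.05, among them Egln3, Pfkl and Pfkp. The median difference was -0.25 against -0.06 over all probe sets and -0.11 over all genes by their brightest probe set. Of the 11, 9 were below 0, and the share of all probe sets below 0 was not counted. Egln3 differed most, with 9.66, 8.61 and 8.55 against 9.58, 9.65 and 9.88 (-0.77, 95% interval -1.34 to -0.19, adjusted p = 0.0986), and its KO16 value lay among the controls. The Pfkl values were 9.17, 8.62 and 8.74 against 9.40, 9.13 and 9.12 (-0.37, adjusted p = 0.127).

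Only Pfkp did not overlap between these groups, with 9.09, 8.77 and 8.88 against 9.10, 9.11 and 9.26 (-0.24, adjusted p = 0.129), where 16.6% of all probe sets did not overlap. KO16 and the other 2 lungs lay on opposite sides of the control mean for Epas1 (KO16 -0.35, KO17 0.58, KO18 0.56), Slc2a1, Hk2, Pdk1, both Bnip3 probe sets and Ldha. Without KO16, 9 of the 11 passed, 8 lower and Epas1 higher, as did 61.9% of all probe sets. Without KO17 and KO18 none passed, and the differences ran from -0.35 (Epas1) to 0.29 (Bnip3).

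Lists of type II cells (11.50 to 11.88 against 12.10 to 12.17), type I cells (11.50 to 11.755 against 11.762 to 11.82) and erythroid cells (8.85 to 9.04 against 9.23 to 9.76, 3 markers) were lower in all 3 ScapΔ/Δ lungs at PN1, the lowest type II and erythroid values being those of KO17 and KO18, and their part was not tested. No list gene passed at either day. The smallest p-values at E18.5 belonged to Vhl (0.25), Egln1 (-0.14), Hk1 (0.10), Pfkfb4 (0.19), Pdhb (0.16), Dld (0.28), Car12 (-0.17), Ankrd37 (0.35), Gaa (-0.29) and Phkg2 (0.34), given as log2 differences. At PN1 they belonged to Cited2 (-0.81), Egln1 (-0.44), Aldoc (-1.25), Slc2a3 (-0.26), Pdp2 (-0.54), Pdha1 (-0.56), Cxcr4 (-0.85), Mxi1 (-0.59), Ppp1r3c (-1.23) and Pgm2 (-0.56).

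Whether the Scap effect differed between the days was tested as an interaction, which also tests whether the birth step differed between genotypes. No member passed, as did 0.0% of all probe sets (18.3% at an unadjusted p under 0.05, among them both Bnip3 probe sets). Bnip3 had differences of -0.61 (95% interval -1.20 to -0.02, adjusted p = 0.265) and -0.72 (-1.32 to -0.11, adjusted p = 0.265), and Egln3 of -0.81 (-1.62 to 0.00, adjusted p = 0.265). The larger falls in ScapΔ/Δ lungs are therefore not shown to differ from those in controls. Without KO16, 7 of 11 passed along with 58.4% of all probe sets. Of the lists, the smallest p-values here were those of Cited2 (-0.67), Vhl (-0.44), Aldoc (-1.11), Ldhb (-0.64), Pdp2 (-0.49), Dld (-0.69), Cxcr4 (-0.85), Mxi1 (-0.66), Ppp1r3c (-1.38) and Phkg2 (-0.70), none of them called.

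At E17.5 the loss of Insig1 on the Insig2-/- background was not accompanied by a called change in any member, as 0.0% of all probe sets were called (4.1% had an unadjusted p under 0.05, and no member did). The median difference was -0.03 against 0.01 over all, and all 11 probe sets overlapped between the groups, where 5.83% of all probe sets were higher and 4.22% lower without overlap. Hk2 came nearest, with 8.32, 8.09 and 7.92 in Insig1/2Δ/Δ lungs against 8.45, 8.29 and 8.41 (-0.27, 95% interval -0.55 to 0.00, adjusted p = 0.758). The 95% interval was -0.21 to 0.18 for Slc2a1, -0.28 to 0.13 for Pfkl, -0.10 to 0.22 for Ldha and -0.38 to 0.59 for Egln3.

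Bnip3 varied most within these groups, with 10.77, 10.84 and 11.35 in controls and 10.76, 11.46 and 11.52 in Insig1/2Δ/Δ lungs for the brighter probe set. Control C21 was the highest control for Bnip3, Egln3, Pfkp, Slc2a1, Epas1 and Ldha, and its cardiac muscle list averaged 11.40 against 9.24 to 10.004 in the other 17 arrays. KO23 and KO24 were as high as C21 for Bnip3, with cardiac muscle lists of 9.62 and 9.81. For Bnip3 and Egln3, C19, C20 and KO22 lay lower than these arrays, so the split ran across both genotypes. The part of these differences was not tested. The list genes with the smallest p-values were Hif3a (-0.26), Hif1an (-0.27), Aldoc (0.71), Hk2, Pdha1 (-0.11), Dld (-0.11), Angptl4 (0.24), Car12 (0.36), Stbd1 (0.28) and Pygb (-0.24), none of them called.

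Across the 6 groups, set side by side because the lines differ in background and were not tested against each other, the order of the mean levels followed the day for several genes. Slc2a1 was highest at E17.5 (11.59 ± 0.09 SD in controls and 11.57 ± 0.10 in Insig1/2Δ/Δ, n = 3 each), followed by E18.5 (11.43 ± 0.09 and 11.38 ± 0.25 in ScapΔ/Δ) and PN1 (10.49 ± 0.16 and 10.18 ± 0.30). In this order only the E18.5 ScapΔ/Δ and PN1 control groups, of all neighbours, did not overlap, and Pfkl had the same order with the same single gap, from 10.48 ± 0.09 in E17.5 controls to 8.84 ± 0.29 in PN1 ScapΔ/Δ lungs. Egln3 had its only gap between neighbours at the E18.5 and PN1 control groups, with 4 fetal means between 11.08 and 11.20 and PN1 means of 9.71 ± 0.16 and 8.94 ± 0.63.

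Pdk1 also ran from 9.76 ± 0.15 in E17.5 controls down to 8.46 ± 0.41 in PN1 ScapΔ/Δ lungs. Hk2 was highest in E17.5 controls (8.38 ± 0.08), and both PN1 groups (7.61 ± 0.12 in ScapΔ/Δ and 7.53 ± 0.03 in controls) overlapped with each other and lay below every fetal lung. Epas1 was highest at birth, with 12.04 ± 0.53 and 11.78 ± 0.23 at PN1 and 10.77 to 11.03 in the 4 fetal groups, while Hif1a ranged by 0.81 and Ldha by 0.75 over all 18 arrays, against 2.88 for Egln3. Bnip3 peaked in E18.5 ScapΔ/Δ lungs (11.88 ± 0.19) and its E18.5 control mean (11.45 ± 0.12) overlapped with the E17.5 Insig1/2Δ/Δ group (11.25 ± 0.42).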

How the data were processed

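The authors hybridized whole-lung RNA to the Affymetrix Mouse Gene 1.0 ST array and analyzed the data in GeneSpring GX, and the deposited values were log2 expression values per probe set; how they were summarized and normalized is not given in the sources used here. Values were used as deposited (3.09 to 14.05, array medians 7.42 to 7.70), and the number of arrays, 3 per group, limits the precision. Gene symbols came from the platform annotation, in which 21789 probe sets had a single symbol, 1621 several and 12146 none, and members were matched by symbol only.

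Groups were taken from the sample titles and characteristics. Following the methods' filter, a probe set was kept if it reached the 35th percentile on 66% or more of a fit's arrays, and all 11 member probe sets passed. Group means were fitted with limma 3.58.1 in R 4.3.3 (lmFit, eBayes) over the 12 Scap line arrays, which then share 1 estimate of the spread, and over the 6 Insig arrays separately, with Benjamini-Hochberg adjustment over all probe sets and a threshold of 0.05. The fits were tested on simulated data. Genes of the lists and markers that were not matched to a probe set with a single symbol were not analysed here, and some items are not reported.

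The members, lists and tests were chosen with earlier results of these data known. From each list up to 4 genes per comparison that passed, by size of change, were named, or the 2 with the smallest p-values where fewer passed. Egln1, Pfkm, Hk1, Slc2a3, Ddit4, Nos2, Slc6a6 and Vegfa were named in control lungs after their values were seen. Alternatives were no filter or a 50th percentile filter, quantile normalization, median centring, an intensity trend, an unmoderated t-test on the same groups (the methods name a t-test for the Insig line and two-way ANOVA for the Scap line), array weights, each array left out, KO17 and KO18 left out, and fits of the compared groups alone.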

Additional observations from a re-analysis of the deposited data

How the results depend on the processing

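The number of members called at birth in control lungs (5) was 2 with median centring (1.28% of all probe sets called, against 2.58%), 2 with an unmoderated t-test (1.96%), 8 with array weights (12.5%), 8 without KO17 and KO18 (2516 probe sets) and 8 in the control arrays alone (11.1%), and 1 to 9 with single arrays left out. With single arrays left out, 140 to 2718 of all probe sets were called in that comparison. In ScapΔ/Δ lungs (9) the number of members called was 0 in their own arrays alone (0.281%). It was 7 to 10 with single arrays left out, beside 1716 to 16316 of all probe sets. With array weights it was 2 for the Scap deletion at E18.5 (11.2% of all probe sets), 10 at PN1 (68.1%), 8 for the interaction (64.4%) and 4 for the Insig1/2 deletion (36.7%), against 0 in each as reported. With single arrays left out it was 0, 0 to 9, 0 to 7 and 0 in the same order. Beside these counts, 0 to 99, 1 to 14010, 0 to 13219 and 0 of all probe sets were called. The array weights rest on a spread estimated from 3 arrays a group. In the Scap line, KO17 had the highest weight (10.05), KO18 had 0.787 and KO16 had the lowest (0.0489). The weighted PN1 results therefore leaned on KO17, which stands apart from the other arrays, and hardly used KO16. Some fits held fewer arrays, and the causes of these shifts were not tested. Median centring moved the median change of all genes in ScapΔ/Δ lungs at birth from -0.08 to -0.26, and the 8 falls stayed called. No paired analysis was possible because the replicate numbers in the labels are not shared between groups.

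Values that changed sign were small or uncalled. For the Scap deletion at PN1 without KO17 and KO18 they were Epas1 -0.35, Slc2a1 0.0337, Hk2 -0.0528, Pdk1 0.21, Bnip3 0.29 and 0.26 and Ldha 0.13, with Hk2 at -0.0584 under quantile normalization and -0.0588 under median centring. For the interaction without those arrays they were Hif1a 0.0748, Epas1 -0.15, Slc2a1 0.0811, Pfkl 0.12, Pdk1 0.11 and Ldha 0.11, with Hk2 at -0.0233 under median centring. For ScapΔ/Δ lungs at birth they were Hif1a 0.0067 and Pfkp 0.17 without those arrays and Pfkp 0.0667 under quantile normalization. At E18.5 Pfkp was -0.0193 and Egln3 -0.0692 with array weights and Ldha -0.0123 with quantile normalization, and for the Insig1/2 deletion array weights gave Epas1 0.0025, Slc2a1 0.0852, Pfkp 0.17 and Pdk1 0.0061. With single arrays left out, the ranges that crossed 0 were, at E18.5, Slc2a1 -0.16 to 0.087, Hk2 -0.21 to 0.0347, Pfkp -0.0191 to 0.0778 and Egln3 -0.0406 to 0.19, at PN1 the second Bnip3 probe set -0.35 to 0.0234, at birth Hif1a -0.11 to 0.0013 in controls and Pfkp -0.0931 to 0.0675 in ScapΔ/Δ lungs, and for the Insig1/2 deletion Epas1 -0.20 to 0.001, Slc2a1 -0.0623 to 0.043, Pfkp -0.12 to 0.13, Pdk1 -0.12 to 0.0293 and Egln3 -0.0306 to 0.28. Of the other values under the alternatives, 1121 kept their direction and side of the threshold, 56 newly passed and 62 no longer passed.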
